A study of Mus musculus with 48 samples.

Results

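The libraries described here are the 6 of 48 that hold total liver RNA of the late night: 3 from wild-type mice and 3 from Nono-/- mice, 1 of each genotype at 20, 22 and 0 h of zeitgeber time (ZT, counted from lights on). They were chosen by their labels alone. All mice were C57BL/6, 14 weeks old, kept in a 12 h light and 12 h dark cycle and fed in the dark phase only for 1 week, and every library came from a pool of livers of 2 mice. ZT20 and ZT22 fall in the second part of the feeding phase and ZT0 at lights on. The labels give no detail of the Nono allele, and name no other allele in either group. The other 18 libraries of total RNA, at the other 9 time points, served to estimate the spread and to show whether a difference was also seen at other times of day. The question was which messenger RNAs differ between the genotypes in this window.

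NONO is a nuclear protein that binds RNA and DNA. With SFPQ and PSPC1 it forms the DBHS family (Drosophila behaviour and human splicing), whose members pair with each other and sit in paraspeckles, nuclear bodies built on the long RNA Neat1. NONO is also a partner of the PERIOD clock proteins, and in the liver it has been tied to the handling of transcripts that respond to feeding. In the late night a mouse liver has been taking up nutrients for hours: insulin signalling and lipid synthesis are active, and the clock activator Arntl is near its daily high.

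Values are FPKM (fragments per unit of exon length and of sequencing depth, for introns per unit of intron length). Differences are log2 changes, Nono-/- minus wild type, after scaling of the libraries to a common median gene, each pair of libraries being compared at its own time point. An adjusted p is from limma with Benjamini-Hochberg adjustment over all genes tested, with a threshold of 0.05, and a gene past it is said to have risen, fallen or been called. The depth, worked out from the steps between low values, was 11.8 to 20.2 M reads in the wild-type and 10.2 to 14.3 M in the Nono-/- libraries, M standing for mega. Introns took 19.2% to 23.8% of the reads in wild type and 16.3% to 19.97% in Nono-/-.

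The libraries differed in a way that the genotype label does not name, and this was measured before any gene was described. Genes of skeletal muscle fibres (12 genes, among them Acta1, Ckm, Tnnt3 and Tnni2) summed to 36.4 FPKM in the Nono-/- ZT20 library and 47.4 FPKM in the Nono-/- ZT22 library, with all 12 above 0. In the other 4 libraries they summed to 0.346 to 0.684 FPKM, and 11 of the 12 were at 0 in the Nono-/- ZT0 library. Genes of adipose tissue (9 genes) summed to 261 FPKM in the Nono-/- ZT22 library, 32.4 FPKM in Nono-/- ZT0, 18.7 FPKM in Nono-/- ZT20 and 13.3 to 14.4 FPKM in wild type. Adiponectin (Adipoq), a hormone made by fat cells, was at 22.1 FPKM in the Nono-/- ZT22 library and at no more than 0.797 FPKM in the other 5. Genes that mark hepatocytes summed to 45372 to 52520 FPKM in wild type and 46353 to 55088 FPKM in Nono-/-, so the labelled tissue was present in every library. The muscle and adipose lists were drawn up after these values had been seen.

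**Figure D1:**
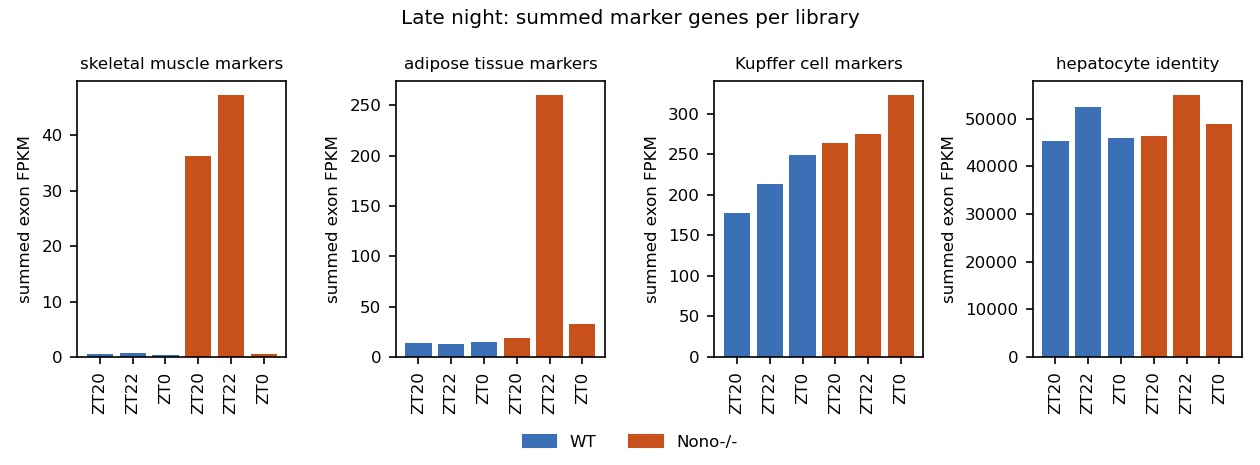
Summed exon FPKM of 4 marker lists (vertical axis) in each of the 6 late-night libraries (horizontal axis), wild type in blue and Nono-/- in orange. Muscle genes stand out in Nono-/- ZT20 and ZT22 (36.4 and 47.4 FPKM) and adipose genes in Nono-/- ZT22 (261 FPKM), whereas hepatocyte genes are of similar height in all 6.

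Nono itself was read first. Its exons had 9.89, 10.49 and 9.20 FPKM in wild type at ZT20, ZT22 and ZT0, which stands for 285, 393 and 456 reads, and 0, 0.0910 and 0.0290 FPKM in Nono-/-, which stands for 0, 3 and 1 reads. All 6 libraries were thus in keeping with their labels. The log2 change was -6.19 ± 0.20 (SE, limma adjusted p = 9.09e-09). In mm10 the gene spans positions 101429651 to 101448593 of chromosome X, plus strand.

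Of 11352 genes tested on exons, 413 were called (3.64%). Of these, 127 rose (1.12%) and 286 fell (2.52%), Nono included among the latter. Without Nono, the median change was 0.60 for the genes that rose and -0.76 for those that fell, and 19 and 52 of them passed a change of 1 on the log2 scale. All 127 and all 285 kept the sign of their change at each of the 3 time points. The calls rest on the mean of these same 3 differences, so neither this count nor the separation given next is a separate check. The scaled values of all 3 Nono-/- libraries lay above all 3 of wild type for 96 of the 127, and below for 223 of the 285; over all tested genes the shares were 8.4% and 9.96%. The adjusted p-values were close to the threshold, with a lowest of 0.00557 among the genes that rose and 0.0161 among those that fell, and a median change near 0 (0.00) over all genes.

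The count rested on having all 3 pairs and the time point as a block. Leaving out the ZT20, ZT22 or ZT0 pair left 1, 4 and 4 genes called, and the ZT0 pair alone left 3. Fits without the block, or on the 6 late-night libraries alone, called 1 gene each. Nono was the only one of the 42 called genes named by rule that was called under all alternatives run on it, although all 42 kept their direction in all of them. Scaling to the sum of FPKM, which moved the median gene to -0.10, turned the split of 127 higher and 286 lower into 57 and 592.

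**Figure D2:**
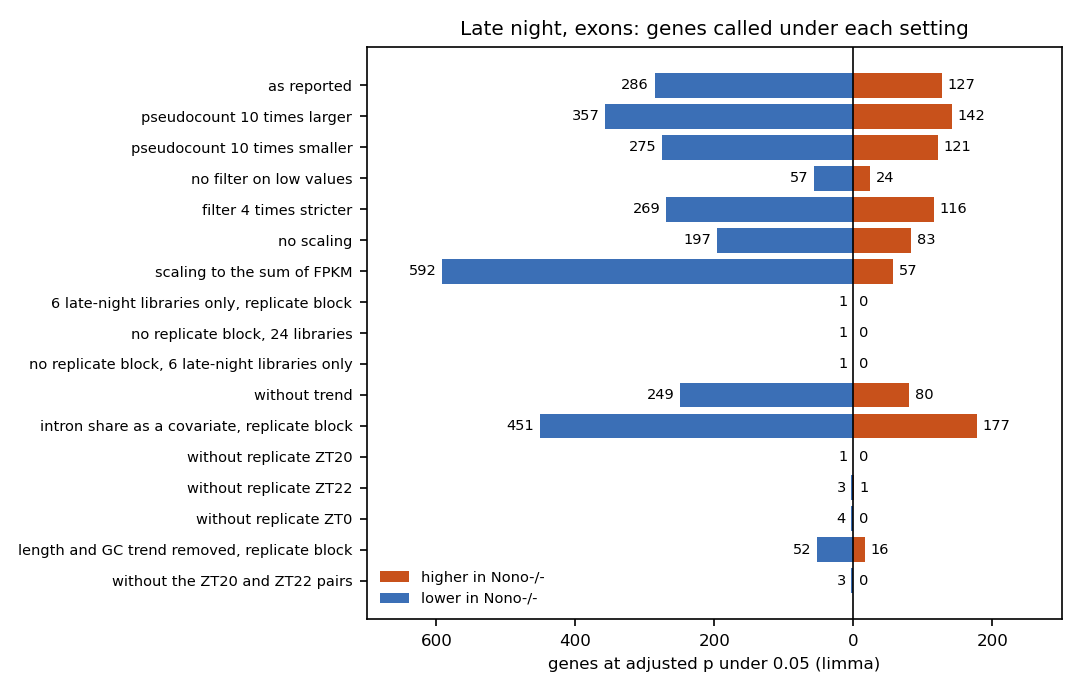
Number of genes past an adjusted p of 0.05 (horizontal axis, higher in Nono-/- to the right in orange, lower to the left in blue) under each processing setting (vertical axis). As reported, 127 rose and 286 fell; with any 1 pair left out, between 1 and 4 genes in all remained past the threshold.

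The genes of the DBHS and paraspeckle list were read in the order of their roles. Pspc1, a member of the family that can pair with NONO, rose: it had 3.09, 2.79 and 2.57 FPKM in wild type and 4.90, 5.28 and 6.41 FPKM in Nono-/- at ZT20, ZT22 and ZT0. All 3 Nono-/- libraries were above all 3 wild-type libraries, and the change was 0.95 ± 0.17 (1.94-fold, limma adjusted p = 0.0275). Sfpq, the third member and the most abundant of them per length, averaged 16.02 ± 1.099 FPKM in wild type against 15.4 ± 1.57 FPKM in Nono-/- (SD, n = 3 each, limma adjusted p = 0.832), a difference smaller than the spread. In wild type the family thus stood in the order Sfpq, Nono, Pspc1, with no overlap between neighbours over the 3 libraries. Without Nono the order was Sfpq and then Pspc1.

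Of the 15 genes of that list, 1 rose (Pspc1), 1 fell (Nono itself) and 13 did not pass. Over all genes, 1.12% rose and 2.52% fell. Matr3, an RNA-binding protein of the nuclear matrix, had 17.4, 18.02 and 20.2 FPKM in wild type and 21.96, 23.7 and 29.5 FPKM in Nono-/-, without overlap, yet missed the threshold (0.43 ± 0.14, limma adjusted p = 0.0974). Neat1 was read over an entry of 3184 bases, which cannot tell longer forms apart. It ranged from 36.9 to 75.3 FPKM in wild type and from 67.0 to 84.9 FPKM in Nono-/- (limma adjusted p = 0.577). Its groups overlapped, and its wild-type spread was wide.

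Pspc1 was higher in Nono-/- at 12 of the 12 time points of the day, so its difference was not particular to the late night. The changes in the other windows of 3 time points were 0.58 in early feeding (ZT14 to ZT18), 0.99 in early light (ZT2 to ZT6) and 0.81 in late fast (ZT8 to ZT12). The late-night change exceeded their mean by 0.16 ± 0.20 (SE, limma adjusted p = 0.918). In nuclear RNA of the same livers its introns changed by 0.57 (limma adjusted p = 0.498).

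**Figure D3:**
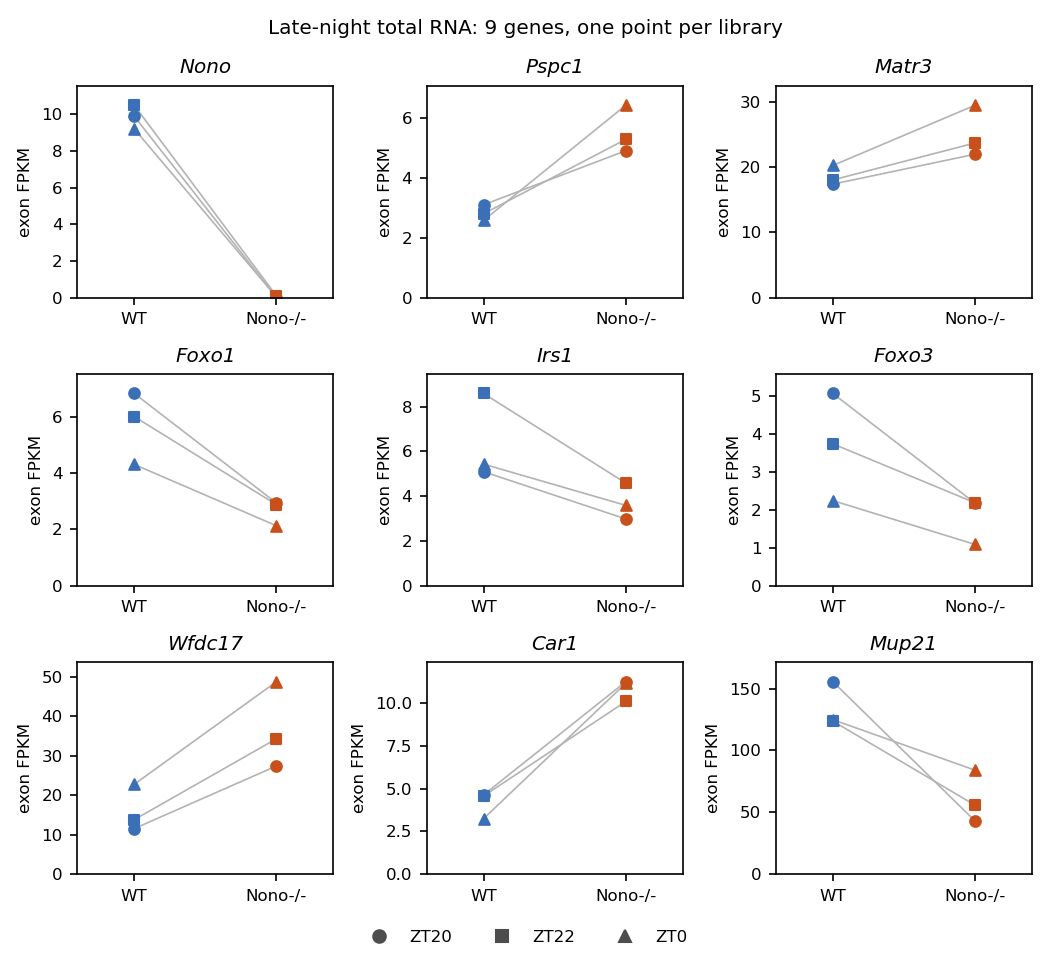
Exon FPKM (vertical axis) of 9 genes in the 6 late-night libraries, wild type to the left in blue and Nono-/- to the right in orange, with lines that join the libraries of 1 time point. Pspc1, Wfdc17 and Car1 are higher and Foxo1, Irs1, Foxo3 and Mup21 lower in Nono-/- at all 3 time points; Matr3 is also higher but did not pass the threshold.

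The list of insulin and IGF signalling was read next. Of its 16 genes, 0 rose and 3 fell, beside 2.52% of all genes that fell: Foxo1, Foxo3 and Irs1. Only Foxo1 was also called with the trend of the change with transcript length and GC content removed. FOXO1 and FOXO3 are forkhead transcription factors that insulin keeps out of the nucleus, and IRS1 couples the insulin receptor to its kinases. The median change over the 16 was -0.17, beside 0.00 for all genes tested, and went to -0.11 without the ZT20 pair and -0.26 without ZT22.

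The promoters of these 3 genes are shown because their transcripts fell together. They are 300-base windows, 250 bases before to 50 after the start site, from RefSeq on GRCm38.p6, written 5′ to 3′ on the strand of the gene: Foxo1 at chr3:52268087-52268386 (plus strand), Irs1 at chr1:82291390-82291689 (minus strand) and Foxo3 at chr10:42276646-42276945 (minus strand). Capitals mark matches to 6 motifs searched on both strands.
Foxo1: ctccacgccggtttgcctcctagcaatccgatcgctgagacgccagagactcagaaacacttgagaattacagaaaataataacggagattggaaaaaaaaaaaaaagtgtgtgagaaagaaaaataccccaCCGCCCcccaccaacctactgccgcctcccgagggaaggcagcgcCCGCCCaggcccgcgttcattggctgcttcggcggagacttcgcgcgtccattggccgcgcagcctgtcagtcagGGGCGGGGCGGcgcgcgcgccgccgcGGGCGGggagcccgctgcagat
Irs1: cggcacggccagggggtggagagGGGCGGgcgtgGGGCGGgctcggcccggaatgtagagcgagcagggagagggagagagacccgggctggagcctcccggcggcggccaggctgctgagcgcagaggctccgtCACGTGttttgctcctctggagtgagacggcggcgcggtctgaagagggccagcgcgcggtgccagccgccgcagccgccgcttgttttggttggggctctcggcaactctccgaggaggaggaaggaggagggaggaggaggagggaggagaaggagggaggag
Foxo3: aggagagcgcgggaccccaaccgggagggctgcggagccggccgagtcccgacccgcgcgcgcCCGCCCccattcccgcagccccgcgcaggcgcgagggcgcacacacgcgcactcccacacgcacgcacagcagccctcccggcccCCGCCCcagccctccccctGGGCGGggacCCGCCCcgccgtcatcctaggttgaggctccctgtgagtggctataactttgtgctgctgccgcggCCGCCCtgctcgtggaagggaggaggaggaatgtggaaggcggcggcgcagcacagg
The motifs were the E-box CACGTG, the forkhead motif GTAAACA, the cyclic AMP response element TGACGTCA, the ROR element core AGGTCA, the D-box TTATGTAA and the Sp1 box GGGCGG; none of these 6 contains another. The Sp1 box was found 5 times in Foxo1, 2 times in Irs1 and 5 times in Foxo3, and it is held by 35.7% of the 32851 promoter windows of the same length. The E-box was found 1 time, in Irs1, against 7.15% of all windows, and the other 4 motifs were not found in these 3 windows (3.65%, 1.79%, 16.3% and 0.938% of all windows, in the order given). The windows had a GC content of 61.3%, 71.3% and 75.0%, beside a median of 52.7%. A match of letters is a description only.

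Foxo1 had 6.82, 6.00 and 4.30 FPKM in wild type and 2.94, 2.88 and 2.13 FPKM in Nono-/- at ZT20, ZT22 and ZT0. The groups did not overlap, and the fall was 2.08-fold (-1.06 ± 0.17, limma adjusted p = 0.026). Its pairwise changes at ZT20, ZT22 and ZT0 were -1.12, -1.03 and -1.01. It was called under 9 of 16 alternatives.

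Foxo3 had 5.07, 3.74 and 2.25 FPKM in wild type and 2.18, 2.19 and 1.09 FPKM in Nono-/-, a 1.94-fold fall (-0.96 ± 0.21, limma adjusted p = 0.035). Irs1 had 5.10, 8.59 and 5.44 FPKM in wild type and 2.99, 4.59 and 3.59 FPKM in Nono-/-, a 1.66-fold fall (-0.73 ± 0.13, limma adjusted p = 0.026). Both were lower in Nono-/- at each of the 3 time points. Irs2, the other main adaptor of the insulin receptor in liver, was at 1.46, 1.34 and 0.987 FPKM in wild type and 0.734, 0.741 and 0.383 FPKM in Nono-/- and just missed the threshold (-0.94 ± 0.25, limma adjusted p = 0.0572). It overlaps a gene on the other strand, and the counting is not stated to use strand.

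Over the day Irs1 was lower in Nono-/- at 12 of 12 time points, Foxo1 at 9 and Foxo3 at 9. For Foxo1 the change was -0.49 in early feeding, -0.32 in early light and 0.02 in late fast. The test of the late night against the mean of the other windows gave -0.79 ± 0.20 for Foxo1, -0.74 ± 0.24 for Foxo3 and -0.33 ± 0.15 for Irs1, none past the threshold (limma adjusted p = 0.760, 0.760 and 0.773). Intron signal in the same total RNA libraries was lower by 0.67, 0.47 and 0.46 on the log2 scale for Foxo1, Foxo3 and Irs1 in Nono-/-, with limma adjusted p-values of 0.349, 0.530 and 0.406.

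**Figure D4:**
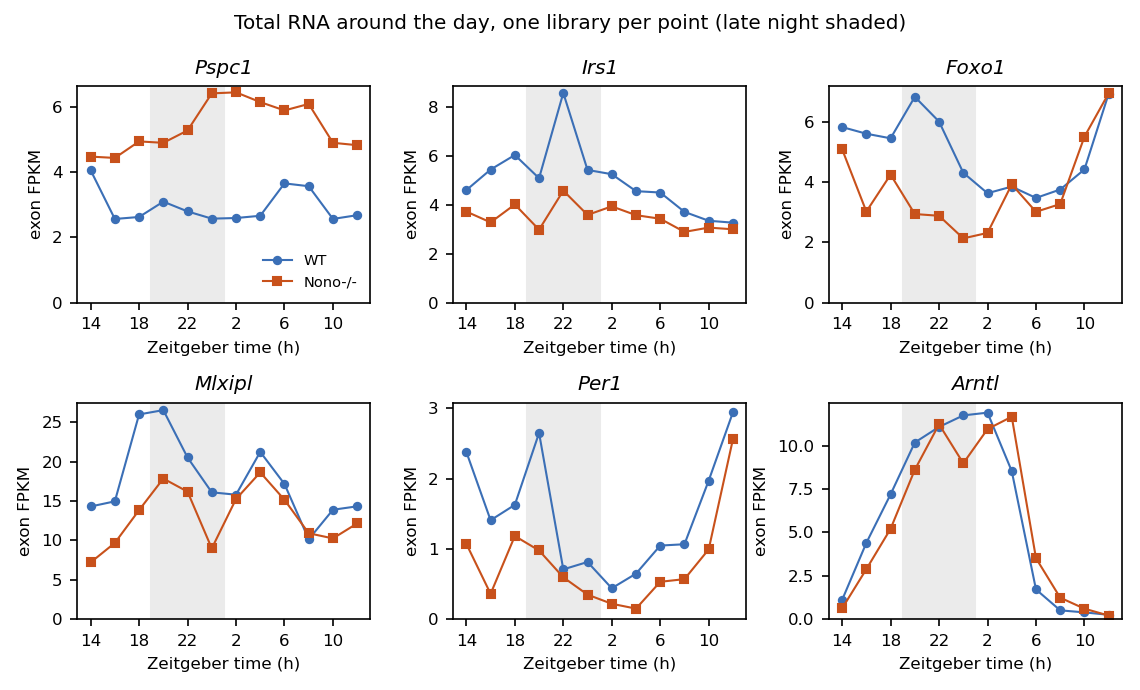
Exon FPKM (vertical axis) of 6 genes around the day (horizontal axis, zeitgeber time in hours), 1 library per point, wild type in blue and Nono-/- in orange, with the late night shaded. Pspc1 is higher and Irs1 and Per1 are lower in Nono-/- at 12 of 12 time points, whereas the curves of Foxo1 meet in the light phase and those of Arntl cross, with Nono-/- lower at 7 of 12 time points.

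Lipid and sterol genes gave few calls, none of which remained with the length and GC trend removed. Of 19 tested lipogenic genes, 0 rose and 1 fell (2.52% of all genes fell), Mlxipl, which encodes the glucose-sensing factor ChREBP: 26.6, 20.5 and 16.1 FPKM in wild type and 17.9, 16.2 and 8.99 FPKM in Nono-/- (-0.57 ± 0.12, limma adjusted p = 0.0314). Within each time point Nono-/- was lower, though across time points the groups overlapped. The median change of the list was -0.35, and it was -0.19 without the ZT20 pair and -0.47 without ZT22. Acacb, an acetyl-CoA carboxylase, was at 27.9, 18.6 and 4.71 FPKM in wild type and 9.75, 9.20 and 2.79 FPKM in Nono-/- (limma adjusted p = 0.0577), and malic enzyme Me1 at 34.8, 17.3 and 15.4 against 15.4, 16.2 and 10.1 FPKM (limma adjusted p = 0.0609). Neither passed.

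Of the 20 genes of the cholesterol list, 0 rose and 1 fell, beside 1.12% and 2.52% of all genes. The 1 fall was Srebf2, the main activator of cholesterol synthesis. It had 5.03, 6.73 and 2.27 FPKM in wild type and 2.29, 2.94 and 1.26 FPKM in Nono-/- (-1.01 ± 0.24, limma adjusted p = 0.0403). The span of Srebf2 overlaps that of the microRNA gene Mir33 on the same strand, and whether exon reads are shared was not tested. The median change of the list was -0.02.

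In the autophagy list, 1 of 17 genes rose and 2 fell, beside 1.12% and 2.52% of all genes. With the trend of the change with transcript length and GC content removed, an alternative described further on, 0 of the 17 were called (limma). Ulk1, the kinase that starts autophagy, had 5.38, 5.28 and 2.35 FPKM in wild type and 2.70, 1.48 and 1.07 FPKM in Nono-/- (-1.26 ± 0.21, limma adjusted p = 0.026). Atg9a, a membrane protein of the same pathway, fell by 0.75 ± 0.15 on the log2 scale (limma adjusted p = 0.0286). Gabarapl2, a small protein attached to the growing membrane, rose by 0.44 ± 0.09 (limma adjusted p = 0.0338).

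None of the 20 tested genes of the clock list passed (limma, 0 higher and 0 lower, beside 1.12% and 2.52% of all genes). The median change of the list was -0.26, and -0.17 without the ZT20 pair. Per1, a repressor of the clock loop, was at 2.65, 0.708 and 0.813 FPKM in wild type and 0.977, 0.595 and 0.348 FPKM in Nono-/- (-0.85 ± 0.27, limma adjusted p = 0.0994). It was lower in Nono-/- at 12 of 12 time points of the day. The output factor Hlf had 6.16, 7.67 and 3.73 FPKM in wild type and 3.67, 3.74 and 3.099 FPKM in Nono-/- (limma adjusted p = 0.0779). Arntl was at 10.2, 11.1 and 11.8 FPKM in wild type and 8.62, 11.2 and 8.99 FPKM in Nono-/-, and Clock at 13.3 ± 1.26 and 12.99 ± 1.53 FPKM (SD, n = 3 each); both differences were within the spread (limma adjusted p = 0.67 and 0.927). Only Hlf, Nr1d1 and Rora of the 20 had all 3 Nono-/- libraries below all 3 of wild type, beside 9.96% of all genes, and 0 had them all above.

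Of 14 markers of Kupffer cells, the resident macrophages of the liver, 3 rose and 0 fell, beside 1.12% of all genes that rose: Vsig4, a complement receptor, Cd68, a lysosomal protein, and Adgre1, which encodes F4/80. Vsig4 had 10.9, 15.0 and 20.3 FPKM in wild type and 22.1, 19.7 and 37.9 FPKM in Nono-/- (0.78 ± 0.16, limma adjusted p = 0.0304). Cd68 had 2.63, 3.97 and 2.57 FPKM against 5.34, 4.78 and 4.24 FPKM (limma adjusted p = 0.0353), without overlap. With the length and GC trend removed, 0 of the 14 were called (limma). The median change of the list was 0.53, and 0.57 in the ZT0 pair alone. Summed over the 14 markers, wild type had 177 to 249 FPKM and Nono-/- 263 to 324 FPKM, inside the range of 137 to 389 FPKM seen in the other 18 libraries. In bulk RNA, more cells of a type and more RNA per cell cannot be told apart.

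Among the 12 largest rises named by rule, Wfdc17, a small secreted protein of macrophages, had 11.5, 13.8 and 22.8 FPKM in wild type and 27.4, 34.3 and 48.8 FPKM in Nono-/- (2.34-fold, limma adjusted p = 0.026). The groups did not overlap. The chemokine Ccl6 had 2.02, 3.02 and 3.63 FPKM in wild type and 6.72, 6.07 and 7.04 FPKM in Nono-/- (2.32-fold, limma adjusted p = 0.0383); it overlaps a gene on the other strand. Tlr13, a receptor for bacterial RNA, rose 2.48-fold and Ms4a6b 3.09-fold, both from under 1 FPKM in every wild-type library. The changes of Wfdc17 in early feeding, early light and late fast were 0.78, 0.10 and -0.23. Other cell types gave few calls: 0 of 13 liver endothelial, 0 of 12 stellate and 1 of 6 erythroid genes. Over all genes, 1.12% rose and 2.52% fell. The interferon list had 0 of 20 calls (limma), a median change of 0.19 (0.30 without ZT22) and 6 genes whose Nono-/- libraries were all above wild type, beside 8.4% of all genes.

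The erythroid call was Car1, a carbonic anhydrase of red cells, with 4.63, 4.57 and 3.24 FPKM in wild type and 11.3, 10.1 and 11.2 FPKM in Nono-/- (2.63-fold, 1.395 ± 0.25, limma adjusted p = 0.026). It was higher in Nono-/- at 12 of 12 time points. The globin gene Hbb-bs, which overlaps the model of its near copy Hbb-b1, had 2.82, 6.71 and 40.2 FPKM in wild type and 20.3, 58.0 and 16.1 FPKM in Nono-/- (1.54 ± 0.73, limma adjusted p = 0.244). It was higher in Nono-/- at ZT20 and ZT22 and lower at ZT0, and the groups overlapped. The median change of the erythroid list was 0.94, and -1.29 in the ZT0 pair alone.

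Some rises carry a limit of their own. Mylpf, a myosin light chain of fast muscle, had 0.228, 0.526 and 0.199 FPKM in wild type and 5.92, 11.5 and 0.562 FPKM in Nono-/- (3.19 ± 0.74, limma adjusted p = 0.0403), and its change at ZT0 was 1.13 against 4.24 and 4.20 at ZT20 and ZT22. Fabp4, a fatty acid carrier of adipocytes and macrophages, had 7.63, 7.73 and 7.09 FPKM in wild type and 12.2, 147.9 and 19.3 FPKM in Nono-/- (limma adjusted p = 0.0338), with a change of 4.24 at ZT22 and of 0.73 and 1.399 at ZT20 and ZT0. Lpl, lipoprotein lipase, had 4.91, 19.1 and 9.41 FPKM in Nono-/- against 2.82, 4.31 and 5.99 FPKM (limma adjusted p = 0.0323). These are genes of the muscle and adipose lists, and the part of the other tissues in their change was not tested. Without the ZT22 pair the change was 2.69 for Mylpf, 1.07 for Fabp4 and 0.73 for Lpl, none of them called in a fit that called 4 of 11352 genes. The small RNA genes named by the rule rest on few reads: Snora65, inside Rpl12, on 0 to 1 reads in wild type and 2 to 4 in Nono-/-, Snora31, inside Tpt1, on 2 to 3 and 5 to 8, Mir702, inside Plod3, on 3 to 9 and 0 to 2, and Mir1957b, opposite Wdr59, on 3 to 4 and 0 to 1. For all 4, reads of the gene they overlap cannot be told apart from theirs.

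The remaining named rises were Clec2h, a C-type lectin (2.74-fold), Nupr1, a stress-induced nuclear protein (2.80-fold), and Fabp7, a fatty acid carrier (2.38-fold). Clec2h was clearly apart, at 0.881 to 1.45 FPKM in wild type and 2.87 to 4.19 FPKM in Nono-/-. Nupr1 was low, at 0.137 to 0.632 and 0.675 to 1.91 FPKM, and its changes at other times were of the opposite sign (-0.19, -0.59 and -0.73). Tmsb4x, which encodes the actin-binding thymosin beta 4 and is named after its values were seen, had the lowest adjusted p of the genes that rose: 60.0, 69.1 and 88.4 FPKM in wild type and 110, 119 and 179 FPKM in Nono-/- (0.90 ± 0.10, limma adjusted p = 0.00557).

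Single calls stood in 4 further lists, with 19, 15, 19 and 15 genes tested in the order below. Over all genes, 1.12% rose and 2.52% fell. Oat, an enzyme of ornithine breakdown, rose from 224 ± 25.7 to 355 ± 41.7 FPKM (SD, n = 3 each, limma adjusted p = 0.0439), and Hspe1, a mitochondrial chaperonin, from 31.7 ± 2.06 to 46.5 ± 2.99 FPKM (limma adjusted p = 0.0299). Cyp2c37, one of a family of similar drug-metabolizing P450 genes between which reads can be split, rose from 97.8 ± 14.7 to 175 ± 43.2 FPKM (limma adjusted p = 0.0275). Mup21, a major urinary protein gene that also belongs to a family of near copies, fell: 156, 124 and 125 FPKM in wild type and 42.8, 55.7 and 84.0 FPKM in Nono-/- (-1.18 ± 0.24, limma adjusted p = 0.0304). It was lower at 12 of 12 time points. Of the 16 hepatocyte identity genes 0 passed (limma), with Hnf4a at 104 ± 17.9 and 81.9 ± 10.8 FPKM (limma adjusted p = 0.0572).

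Several of the largest named falls were of long transcripts. Lrp1, a large endocytic receptor, had 56.0, 76.0 and 26.8 FPKM in wild type and 26.7, 24.1 and 11.6 FPKM in Nono-/- (-1.29 ± 0.32, limma adjusted p = 0.0448), over an exon length of 14800 bases. Nfic, a transcription factor of the nuclear factor I family, had 5.64, 7.71 and 2.10 FPKM against 2.26, 2.36 and 0.777 FPKM (limma adjusted p = 0.026); it overlaps a microRNA gene. Pvrl1, which encodes the adhesion molecule nectin-1, had 7.12, 10.3 and 2.10 FPKM against 2.10, 2.84 and 1.12 FPKM (limma adjusted p = 0.0275). Both genotypes of these 3 genes were lowest at ZT0, so their groups were best told apart within time points. The others were Mospd3 (-1.68), Slc25a48 (-1.46), Spatc1l (-1.42), C77080 (-1.37, opposite Yars), Rnpepl1 (-1.29) and Pcnxl3 (-1.26, over a microRNA gene).

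Length and base composition of transcripts moved with the change over all genes. The median summed exon length was 5066 bases for the genes that fell and 1273 bases for those that rose, beside 2626 bases for all tested, and the median GC content was 53.6%, 44.6% and 49.8%. By length, the median change went from 0.15 in 1236 genes under 1 kb to -0.20 in 1064 genes over 6 kb, and by GC from 0.15 in 1239 genes under 42% to -0.17 in 2995 genes over 54%. Of 143 genes both over 6 kb and over 54% GC, 46 were called lower and 0 higher, with a median of -0.61. Across the genes, Spearman's rho with the change was -0.33 for length (n = 11352) and -0.38 for GC (n = 11298); genes share libraries and are not independent replicates.

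**Figure D5:**
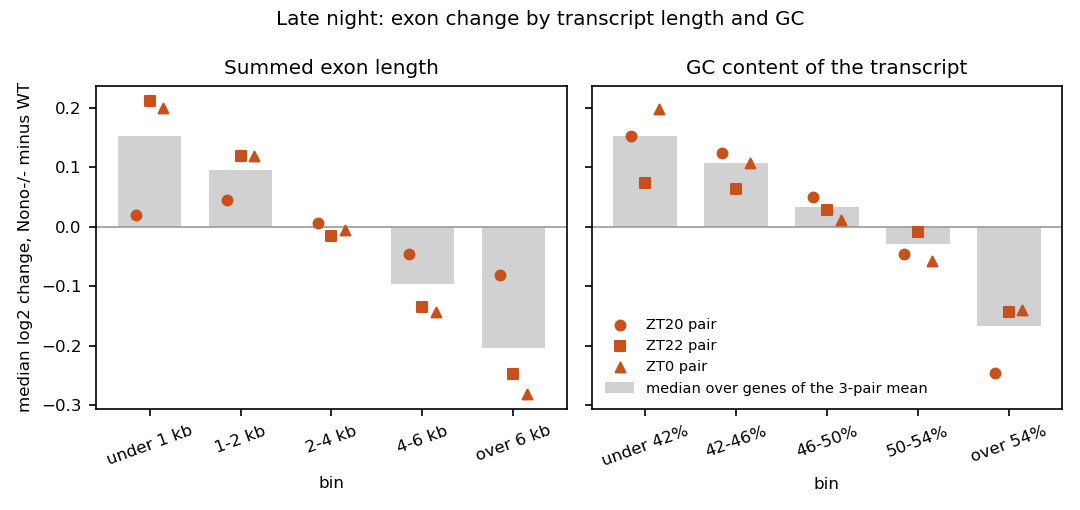
Median log2 change of exon signal, Nono-/- minus wild type (vertical axis), of genes in bins of summed exon length and of GC content (horizontal axes), with bars for the mean of the 3 pairs and 1 point for each pair. The bars fall from 0.15 to -0.20 with length and from 0.15 to -0.17 with GC, and each of the 3 pairs falls in the same direction.

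When each library's median deviation in cells of like length and GC was taken out, an alternative chosen after seeing the data, 68 genes were called, 16 higher (0.142%) and 52 lower (0.46%), of which 50 were among the 413. Of the 413 called genes, 410 had a value there and kept their sign. Called under both were Nono, Pspc1 (0.74, limma adjusted p = 0.0494), Foxo1 (-0.94, limma adjusted p = 0.0383), Car1 (1.11, limma adjusted p = 0.0449), Mup21 (-1.42, limma adjusted p = 0.0422), Mospd3, Slc25a48, Spatc1l, Rnpepl1, Mir1957b and Tmsb4x. The other called genes described above were not called there. Among them were Irs1 (-0.45, limma adjusted p = 0.063), Foxo3 (-0.61, limma adjusted p = 0.0686), Ulk1 (-0.75, limma adjusted p = 0.057), Mlxipl (-0.30, limma adjusted p = 0.343), Srebf2, Lrp1 and the 3 Kupffer genes. So were Atg9a (-0.26, limma adjusted p = 0.147), Gabarapl2 (0.16, limma adjusted p = 0.375), Hspe1 (0.36, limma adjusted p = 0.269), Oat (0.57, limma adjusted p = 0.121) and Cyp2c37 (0.57, limma adjusted p = 0.0553). The median change of the Kupffer list stayed at 0.53 and that of the insulin list went from -0.17 to 0.00. The source of the trend was not tested.

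The called genes were then read at other times of day, in libraries that took no part in the late-night difference. These libraries did share in the spread, the scaling and the filter behind the calls, so they are not a separate check. In early feeding, 122 of the 127 genes that rose were also higher (median 0.47) and 279 of the 285 that fell were also lower (median -0.55), where 49.5% and 50.5% of all genes had those signs. In early light the numbers were 110 and 253, with medians of 0.16 and -0.22, and in late fast 94 and 225, with medians of 0.08 and -0.09. Spearman's rho of the change over all genes was -0.54 in early feeding, 0.34 in early light and 0.07 in late fast for GC, and -0.17, -0.38 and -0.22 for length. In the 143 genes over 6 kb and over 54% GC, the median change was -0.52, -0.07 and -0.05 in these windows. It was 0.34, 0.03 and 0.07 in the 197 genes of 1 to 2 kb and under 42% GC. The part of this trend in the counts was not tested. The direct test of the late night against the mean of the other 3 windows called 0 of 11352 genes (0%; limma, lowest adjusted p = 0.760), with 717 at an unadjusted p under 0.05.

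Introns gave far fewer calls than exons. In the same libraries 7 of 9422 genes passed on introns (0.0743%), 3 higher (0.0318%) and 4 lower (0.0425%). Orm3, an acute-phase glycoprotein of a family of near copies, rose, with 4, 0 and 3 reads in wild type and 41, 4 and 24 in Nono-/- at ZT20, ZT22 and ZT0 (limma adjusted p = 0.011). Wfdc17 rose as it did on exons, with 1, 6 and 16 against 6, 17 and 25 reads (limma adjusted p = 0.011), and Gm15772 rose by 0.86 ± 0.13 (limma adjusted p = 0.0433). Gm15772 overlaps Rpl26 on the same strand, so their reads cannot be told apart.

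Nono introns fell from 0.374 ± 0.0496 to 0.0867 ± 0.0134 FPKM (SD, n = 3 each, limma adjusted p = 0.00983). Itgb1bp2, which encodes the muscle protein melusin, begins 515 bases past the end of Nono on the same strand of chromosome X, from 101449109 to 101453541. Its introns had 9, 11 and 13 reads in wild type and 0 in all 3 Nono-/- libraries, at least 8.84-fold lower against a limit of 3 reads over the group (limma adjusted p = 0.00072). The antisense gene 9330020H09Rik, opposite Ccnt1, had 4, 6 and 6 intron reads against 0, 0 and 0 (at least 4.28-fold lower, limma adjusted p = 0.00297), and Zfhx2os, opposite Zfhx2, 2, 3 and 2 against 0, 0 and 0 (at least 1.87-fold lower, limma adjusted p = 0.022). Reads of these 2 and of the genes they lie opposite cannot be told apart.

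Nuclear RNA of the same livers was set beside these values. Of 12055 genes, 3 passed on nuclear introns (0.0249%), 1 higher (0.0083%) and 2 lower (0.0166%). These were Nono (1.42 ± 0.1998 to 0.419 ± 0.0646 FPKM, limma adjusted p = 0.000349), Itgb1bp2 (171 reads over the 3 wild-type libraries and 0 in Nono-/-, at least 77.8-fold lower, limma adjusted p = 5.9e-08) and En2, a homeobox gene, with 0 reads in wild type and 41, 18 and 29 in Nono-/- (at least 21.5-fold higher, limma adjusted p = 0.000349). The labels do not describe the Nono allele, and whether the En2 reads came from the En2 gene itself was not tested. Of the genes called on exons, 119 that rose and 278 that fell had a nuclear intron value. Their sign was the same in 83 (69.7%) and 185 (66.5%), with medians of 0.09 and -0.08, where 51.6% and 48.4% of all genes had those signs. The median changes on exons of the same genes were 0.57 and -0.76. Over all genes, the median nuclear intron change went from 0.13 under 42% GC to -0.19 over 54% GC. By exon length it went from -0.095 under 1 kb to 0.07 over 6 kb. The part of these trends in the counts of like sign was not tested.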

How the data were processed

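Per the file headers, the authors computed FPKM over exons and over introns with HOMER's analyzeRepeats.pl on mm10, with isoforms condensed to 1 entry per gene and no strand option; the submitters' processing notes name FastQC 0.11.2 and STAR 2.4.0k. Per the labels' protocols, libraries were stranded total RNA with ribosomal RNA removed. The deposited FPKM values were read for 24453 genes on exons and 20771 on introns. Depths come from the steps that whole reads leave in low FPKM values (100% of them whole).

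Tested were genes whose mean over 24 libraries reached 0.5 FPKM on exons or 0.1 FPKM on introns. The fits were made in R 4.3.3 with limma 3.58.1 with trend, on log2(FPKM + 0.1) or log2(FPKM + 0.05) after median-ratio scaling. The added 0.1 or 0.05 understates changes of low genes. Time point was a block of 12 levels, beside a genotype term in each of 4 windows of 3 time points. All 24 libraries thus share 1 estimate of spread (8 residual degrees of freedom). Each genotype had 1 pool of 2 mice per time point. The p-values thus reflect how far the difference between genotypes varied among the 3 time points of a window. Variation between pools cannot be told apart from change with time there. Time points do pair the libraries: deviations of the late-night exon values from the group means correlated between genotypes at 0.17, 0.17 and 0.39 for ZT20, ZT22 and ZT0. On simulated data for the exon comparison (11352 genes, 50 per size), 47 falls and 46 rises of 2 on the log2 scale were recovered, 28 falls and 25 rises of 1, and 10 unchanged genes were called. The simulated noise was independent between genes, whereas the real libraries share a trend with length and GC. These counts need not hold for the real calls.

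The rule named Nono, the 12 largest rises and falls among called genes with at least 1 FPKM and 1 sign at all 3 time points, 5 each way on introns with at least 0.2 FPKM, the clock and DBHS lists, and 2 to 4 members of each list described with the smallest p. Members and lists were chosen with earlier results of these data known. Transcript GC content came from GENCODE M21, for 99.5% of tested genes. Promoters came from RefSeq on GRCm38.p6. Results for some genes are not reported here.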

Additional observations from a re-analysis of the deposited data

How the results depend on the processing

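Of the 413 exon calls, 409 and 394 were kept with a pseudocount 10 times larger and smaller. A filter 4 times stricter, which tested fewer genes, kept 318, no trend 304 and no scaling 229. In number, the calls stayed within 1.5 times of 413 under these settings. They became 81 without a filter on low values (more genes tested), 649 with scaling to the sum of FPKM, 628 with the intron share as a covariate in the replicate block, 68 with the length and GC trend removed in the replicate block, and 3 with the ZT0 pair alone. Fits on the 6 late-night libraries with the replicate block, on 24 libraries with no replicate block and on 6 with no replicate block called 1 gene each, so that the replicate block and the shared spread of all 24 libraries both bear on the count. Leaving out 1 pair gave 1 to 4 exon calls, 1 to 5 intron calls, 3 to 4 nuclear intron calls and 0 to 2 calls for the late night against other windows, the 2 being without ZT22. The 7 intron calls became 4 with a pseudocount 10 times larger, 1 with a filter 4 times stricter, 1 on 6 libraries with the replicate block and 3 on 24 libraries with no replicate block. The 3 nuclear intron calls became 1 on 6 libraries, with the replicate block or without it. The cause of these shifts was not tested further. No scaling moved the median intron change to -0.20. Depths of 10.2 to 20.2 M reads and 3 pairs limit what could be called: a gene not called here may still differ.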

Other observations

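Genes of macrophages and monocytes beyond the Kupffer markers were gathered into a list of 26 after the values had been seen, so its counts are a description. Of the 23 tested, 12 rose and 0 fell (limma, beside 1.12% of all genes that rose), with a median change of 0.81, and 0.82 in the ZT0 pair alone. With the length and GC trend removed, 1 of the 23 was called and the median was 0.64, and leaving out 1 pair left 0 or 1 called. Their summed level was 161 to 251 FPKM in wild type and 292 to 446 FPKM in Nono-/- in the late night, and 138 to 416 FPKM in the other 18 libraries, with a median of 288 FPKM. The late-night wild-type libraries thus lay in the lower part of the range of the day.

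Several lists had medians away from 0 with few calls or none. The median change was 0.34 for 19 drug-metabolizing P450 genes, of which 1 rose, 0.32 for 20 acute-phase genes and 0.27 for 17 genes of the endoplasmic reticulum stress response. The acute-phase median was 0.04 without the ZT20 pair, 0.58 without ZT0 and 0.03 in the ZT0 pair alone, and that of the stress response 0.12 without ZT0 and 0.48 in the ZT0 pair alone. In the stress response list, Hspa5, the main chaperone of the compartment, was at 253, 298 and 314 FPKM in wild type and 264, 364 and 750 FPKM in Nono-/-. Orm3 exons had 2.78, 2.14 and 3.88 FPKM in wild type and 30.9, 3.11 and 19.1 FPKM in Nono-/- (limma adjusted p = 0.060), so that the ZT22 library stood near wild type. Lpin1, a phosphatidate phosphatase named after its values were seen, stood at 52.3 FPKM (wild type) against 11.99 FPKM (Nono-/-) at ZT20. It was at 4.33 against 4.57 FPKM at ZT22 and at 3.93 against 2.11 FPKM at ZT0. The difference at ZT20 was thus not shared by the ZT22 pair, and no test of Lpin1 is given here. At ZT12 and ZT14 both genotypes were high, with 49.1 and 48.9 FPKM against 42.4 and 36.1 FPKM, from 1 library per point.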
